A study of Mus musculus with 6 samples.

Results

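Messenger RNA of 10 genes that make, lengthen and desaturate fatty acids was followed in 6 mouse lung metastases of Myc-driven mammary tumours. The genes were Fasn, Acaca, Acly, Acss2 and Me1 for synthesis, Scd1 and Scd2 for desaturation, and Elovl1, Elovl5 and Elovl6 for elongation, 10 of the 12393 genes named on the array. They were taken as every probe set annotated with only 1 of these symbols, which gave 23 probe sets, and the probe set with the highest mean signal over the 6 arrays stood for its gene. The symbols were chosen by pathway, the brightest probe sets were selected on mean signal over the 6 arrays, and the list was proposed with the KO minus Het values of these arrays in view, so its differences between genotypes are given as a description and carry no test.

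All tumours carried MMTV-Myc, a transgene in which a mammary tumour virus promoter drives the Myc oncogene in mammary epithelium, and all mice were of the FVB strain. A set of 3 metastases came from mice labelled as E2F2 knockout (KO) and 3 from mice labelled as E2F3 heterozygous (Het). E2F2 and E2F3 are transcription factors of the cell cycle. The state of the other E2F gene in each group, and the ages of the mice, are not stated in the labels, and metastases with both genes intact were not analysed here. Tissue was flash frozen at endpoint, and each metastasis was put on 1 Affymetrix array. The 3 Het titles share 1 number and may mark 1 mouse, whereas the KO titles carry 3 different numbers. Genotype and mouse of origin then cannot be told apart, and the spread among Het arrays may be one within a mouse.

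Each array had the same trimmed mean signal, 500.2, and median signals ran from 137.6 to 164.8. Het replicate 1 (titled LM2) stood apart in its ratio of 3' to 5' signal for the transferrin receptor, at 11.8, against 3.25 to 5.15 on the other 5 arrays; the ratio for actin was 2.38, against 1.48 to 1.73. No probe set carried the symbol E2f2 alone, and the probe set of E2f3 overlapped between the groups (log2 difference 0.09, SE 0.31), so neither genotype label was checked. The summed signal of 8 mammary luminal markers was 38116 to 41364 in KO and 38737 to 46440 in Het metastases. Of the 7 that were kept, 4 were higher on average in KO (median log2 difference 0.01), against 43.7% of all genes kept. Single markers moved both ways. Foxa1 was at 1.08, with all KO arrays above all Het arrays, and Gata3 at -1.06, with all below. Elf5 was at -0.72 and Krt19 at -0.42, both overlapping. The summed signal of 8 milk secretion markers was 54057 to 81757 in KO and 74680 to 84352 in Het metastases. All 8 were lower on average in KO (median log2 difference -0.44), against 56.3% of all genes kept. Markers of alveolar type 2 cells, the surfactant-making cells of the lung, were also present, with summed signals over 7 genes of 10093 to 59328 in KO and 16803 to 27677 in Het metastases. Of the 6 adipocyte markers on the array, only Fabp4, which endothelial cells also express, was bright enough to be kept, and Adipoq stayed at or below 51.5 on every array.

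Cells build fatty acids from citrate that leaves the mitochondrion. ATP citrate lyase (Acly) splits citrate into acetyl-CoA, Acss2 makes acetyl-CoA from acetate, acetyl-CoA carboxylase (Acaca) turns it into malonyl-CoA, and fatty acid synthase (Fasn) joins these units into palmitate, with NADPH that malic enzyme (Me1) helps to supply. Elovl enzymes then lengthen the chains in the endoplasmic reticulum, and the stearoyl-CoA desaturases Scd1 and Scd2 place a double bond in saturated chains. The transcription factors SREBP-1 (Srebf1) and ChREBP (Mlxipl) are known to switch on many of these genes, SREBP-2 (Srebf2) mainly acts on sterol synthesis, and the lactating mammary gland is among the tissues that make most fatty acid.

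Promoters from RefSeq (GRCm38.p6, 250 bases before to 50 after the transcription start) were found for 8 of the 10 genes. Shown are those of the genes whose levels are described most closely here: Elovl6, whose groups did not overlap, Elovl5 and Fasn, which were also higher on average in KO, and Acss2, which was lower on average. Capitals mark every match, on either strand, to the sterol regulatory element TCACNCCAC, the E-box CACGTG, the NF-Y box CCAAT, the Sp1 box GGGCGG and the E2F site TTTNNCGC.
Elovl6, chr3:129532136-129532435, plus strand: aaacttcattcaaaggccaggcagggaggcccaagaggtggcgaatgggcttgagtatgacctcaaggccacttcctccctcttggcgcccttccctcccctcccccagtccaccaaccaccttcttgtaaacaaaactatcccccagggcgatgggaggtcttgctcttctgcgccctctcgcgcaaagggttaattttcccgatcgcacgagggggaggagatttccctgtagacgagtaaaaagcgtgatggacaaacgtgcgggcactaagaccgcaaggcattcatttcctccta
Elovl5, chr9:77917115-77917414, plus strand: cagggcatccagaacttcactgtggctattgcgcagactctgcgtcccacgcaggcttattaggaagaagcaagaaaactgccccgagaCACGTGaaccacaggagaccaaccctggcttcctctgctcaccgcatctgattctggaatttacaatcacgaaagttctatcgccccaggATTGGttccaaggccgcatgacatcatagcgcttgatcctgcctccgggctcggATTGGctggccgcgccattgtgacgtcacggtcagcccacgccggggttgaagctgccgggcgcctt
Fasn, chr11:120824498-120824797, minus strand: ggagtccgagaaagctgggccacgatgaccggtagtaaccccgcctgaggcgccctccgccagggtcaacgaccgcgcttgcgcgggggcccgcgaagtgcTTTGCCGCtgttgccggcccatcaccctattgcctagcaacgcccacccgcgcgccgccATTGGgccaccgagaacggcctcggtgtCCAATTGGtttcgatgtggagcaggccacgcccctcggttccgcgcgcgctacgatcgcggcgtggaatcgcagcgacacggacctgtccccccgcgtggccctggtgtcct
Acss2, chr2:155517793-155518092, plus strand: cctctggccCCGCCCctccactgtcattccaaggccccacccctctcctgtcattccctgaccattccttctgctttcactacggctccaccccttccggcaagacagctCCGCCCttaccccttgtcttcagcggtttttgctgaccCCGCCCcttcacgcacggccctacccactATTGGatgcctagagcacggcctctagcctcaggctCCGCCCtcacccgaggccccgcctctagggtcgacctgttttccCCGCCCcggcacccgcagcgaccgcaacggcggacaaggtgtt
The letters TCACNCCAC were in none of the promoters found for the 8 genes, and in 1.24% of the 32851 promoters of the table. The E-box was in the Elovl5 promoter alone among the 8 genes (7.15% of all promoters, 10.3% of those of genes bright enough to be kept). The E2F letters were in that of Fasn alone (5.17% and 8.67%). NF-Y boxes were in promoters of 6 of the 8 genes, against 37.4% of all promoters and 37.3% of those of genes kept. The 8 genes had 10 promoters, and a gene counted if any of its promoters matched, whereas the shares are per promoter. In Fasn a forward and a reverse NF-Y match overlap to form ccaattgg. Sp1 boxes were in 4 of the 8, with 5 in Acss2, against 35.7% of all promoters and 64.1% of the promoters of genes bright enough to be kept. Elovl6 held no match to any of the 5. These matches describe the letters of this window and say nothing about binding.

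As a group, the 10 genes split into a set that was higher on average in KO metastases and a set that was not. The brightest probe sets were higher on average in KO for 7 of the 10 genes, against 43.7% of the 7971 genes kept after dim probe sets were left out. The median difference over the 10 genes, KO minus Het, was 0.12 on the log2(signal + 16) scale, against -0.04 over the 7971 genes. With single arrays left out, the median of the 10 genes ran from 0.11 without Het replicate 1 to 0.22 without KO replicate 2. With quantile normalization it was 0.08. Elovl5, Elovl6, Scd1 and Fasn had the largest positive values, between 0.47 and 0.80. Acss2 was the lowest, at -0.34, and Acly, Me1 and Elovl1 lay within 0.06 of 0. The 3 KO arrays lay above the 3 Het arrays for Elovl6 alone among brightest probe sets (1 of 10), against 5.93% of the 7971 genes. Of the 21 probe sets of these genes that passed the filter on dim values, 15 were higher on average in KO (47.7% of all probe sets kept) and 5 had every KO array above every Het array (7.87% of all probe sets kept). Because these genes were chosen with this contrast in view, nothing is read from these shares. In limma's fit of 3 KO arrays against the averaged Het arrays, 0 of 13576 probe sets, or 0%, had an adjusted p under 0.05, and 305 had an unadjusted p under 0.05; no probe set of the 10 genes was among those called.

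**Figure D1:**
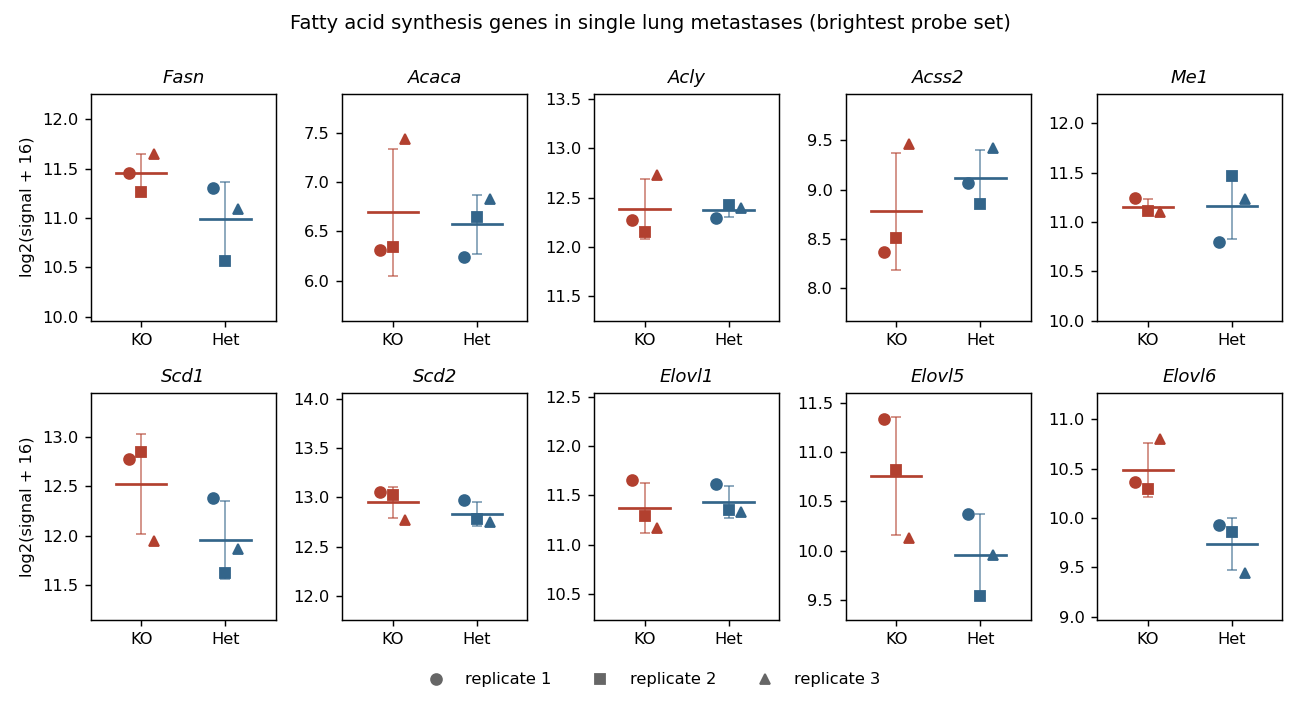
Level of each gene's brightest probe set in every metastasis, as log2(signal + 16), with KO on the left and Het on the right of each panel; every panel spans the same number of log2 units. Symbols give the replicate, horizontal lines the group mean and bars the SD (n = 3 arrays each); Elovl6 is the gene whose KO and Het values do not overlap, and KO replicate 3 stands away from the other KO replicates in Acaca, Acss2 and Scd1.

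Among the synthesis genes, Fasn, the enzyme that assembles palmitate, had signals of 2799, 2443 and 3195 in KO replicates 1, 2 and 3, against 2510, 1500 and 2168 in Het replicates 1, 2 and 3 (1423828_at). The groups overlapped by a narrow margin, since Het replicate 1 lay just above KO replicate 2. The log2 difference was 0.47 (SE 0.25, from the spread of the 3 arrays in each group), or 1.39-fold. It rested in part on the low value of Het replicate 2, without which it was 0.26.

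Acly had signals of 4931, 4519 and 6775 in KO metastases, against 4996, 5466 and 5382 in Het metastases (1451666_at). KO replicate 3 was highest, and the other KO values lay below all Het values, so the means of 5408 ± 1202 in KO and 5281 ± 251 in Het (SD, n = 3 arrays each) hid a wide spread in KO (log2 difference 0.01, SE 0.18). Its second probe set, 1439459_x_at, differed by -0.12 (SE 0.12), and 1425326_at by 0.40 (SE 0.30). This last value came to 0.17 when KO replicate 3 was left out and to 0.21 when Het replicate 1 was. The remaining 2 Acly probe sets had signals of 34.9 or less on every array and did not pass the filter on dim probe sets. The letter x in a probe set's name marks probes that may also match other sequences.

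Acss2, which makes acetyl-CoA from acetate, was the synthesis gene with the lowest difference. It had signals of 314, 349 and 687 in KO metastases, against 522, 446 and 672 in Het metastases (1422479_at). KO replicates 1 and 2 lay below all Het arrays, and KO replicate 3 lay above them. The log2 difference was -0.34 (SE 0.38), and it ranged from -0.68 without KO replicate 3 to -0.13 without KO replicate 1. The other probe set, 1422478_a_at, had 321, 302 and 597 in KO and 586, 394 and 623 in Het metastases, and a difference of -0.42 (SE 0.36). KO replicates 1 and 2 were again below all Het arrays, but KO replicate 3 lay below Het replicate 3.

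Acaca, the carboxylase that makes malonyl-CoA, was dim, with signals of 63.1, 64.9 and 157.3 in KO and 59.4, 84.2 and 97.2 in Het metastases (1427595_at). Only KO replicate 3 stood out, and the log2 difference of 0.12 (SE 0.41) turned to -0.25 without it. Whether so dim a probe set was above background is not known, because detection calls were not used here. Me1 had signals of 2407, 2191 and 2180 in KO and 1760, 2808 and 2387 in Het metastases (1430307_a_at). The KO values lay inside the Het range, with a log2 difference of -0.01 (SE 0.20), and the other probe set, 1416632_at, was at 0.06 (SE 0.27).

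The desaturases gave a less uniform picture, because probe sets of the same gene disagreed in size. The brightest probe set of Scd1, 1415964_at, had signals of 7020, 7373 and 3922 in KO metastases, against 5340, 3138 and 3710 in Het metastases. KO replicates 1 and 2 lay above all Het arrays and KO replicate 3 lay among them. The log2 difference was 0.57 (SE 0.37), and 0.86 without KO replicate 3. The other probe set of Scd1, 1415965_at, did not overlap, with 1261, 976 and 630 in KO and 503, 473 and 526 in Het metastases. Its difference was 0.86 (SE 0.29), or 1.81-fold, and KO replicate 3 was again the lowest of the KO values.

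Scd2, the isoform known from brain and from developing tissues in the mouse, had 3 probe sets with 3 different answers. The brightest, 1415822_at, had signals of 8500, 8289 and 6977 in KO and 8010, 7027 and 6849 in Het metastases, which overlapped (log2 difference 0.12, SE 0.11). The second, 1415823_at, had 2098, 2357 and 2149 in KO and 1139, 1580 and 1235 in Het metastases, with no overlap and a difference of 0.75 (SE 0.15). The third, 1415824_at, had 440, 505 and 506 in KO and 83.5, 390 and 179 in Het metastases, again with no overlap and a difference of 1.33 (SE 0.59). That value was 0.83 without Het replicate 1, the array with the high 3' to 5' ratios, whereas the second probe set was at 0.65 without it. Leaving out Het replicate 2 moved both the other way, to 1.84 for the third probe set and 0.88 for the second. The part of RNA quality in these values was not tested, and where each probe set lies in the transcript is not given in the files.

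**Figure D2:**
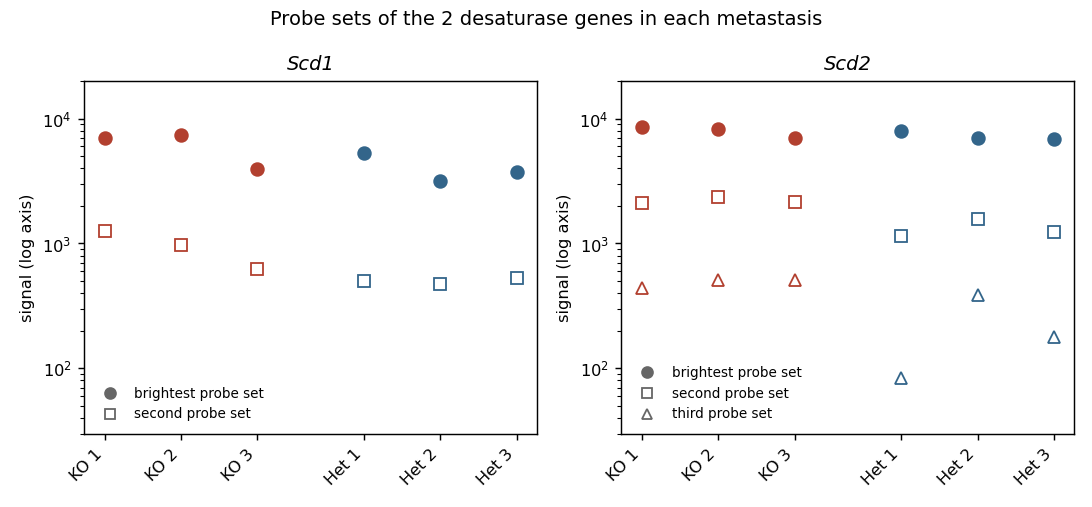
Signal of every probe set of Scd1 (left panel) and Scd2 (right panel) in each metastasis, on a log axis, with KO on the left and Het on the right. Filled circles are the brightest probe set, whose groups overlap for both genes; open symbols are the dimmer ones, whose KO values all lie above the Het values, with Het replicate 1 at 83.5 in the third Scd2 probe set.

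A dimmer probe set was further toward KO than the brightest one of its gene in 6 of 11 cases among the 10 genes, and in 62.2% of 4552 cases over all genes with several probe sets kept. Over all genes the median shift was 0.08. Both dimmer Scd2 probe sets lay further toward KO than the brightest, at 0.75 and 1.33 against 0.12, which are wider gaps than that median. Why the Scd2 probe sets disagree was not tested. Of the 8 genes with several probe sets kept, 5 had the same sign in all of them, namely Acss2, Scd1, Scd2, Elovl5 and Elovl6.

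Among brightest probe sets, the elongases Elovl5 and Elovl6 had the largest differences, although 1 dimmer probe set each of Scd1 (0.86) and Scd2 (1.33) exceeded both. Elovl6, which lengthens palmitate to stearate, had signals of 1305, 1234 and 1763 in KO metastases, against 957, 908 and 677 in Het metastases (1417404_at). All KO values lay above all Het values, and the means were 1434 ± 287 in KO and 847 ± 150 in Het (SD, n = 3 arrays each). The log2 difference was 0.75 (SE 0.22), or 1.68-fold. The dimmer probe set, 1417403_at, had 580, 591 and 883 in KO and 470, 415 and 344 in Het metastases, with no overlap and a difference of 0.70 (SE 0.23). Leaving out any single array kept the brightest probe set between 0.59 and 0.84, and KO replicate 3 was the highest on both probe sets.

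Elovl5, which lengthens polyunsaturated chains, had the largest average difference of a brightest probe set but overlapped. Its signals were 2560, 1784 and 1107 in KO metastases, against 1306, 728 and 978 in Het metastases (1415840_at). KO replicate 3 lay below Het replicate 1, and the KO arrays spanned 1.20 log2 units. The log2 difference was 0.80 (SE 0.42), and 0.52 without KO replicate 1. The other probe set, 1437211_x_at, had 2187, 1439 and 879 in KO and 1264, 698 and 867 in Het metastases (log2 difference 0.61, SE 0.45).

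Elovl1, which lengthens saturated chains to very long ones, had signals of 3207, 2484 and 2292 in KO and 3121, 2591 and 2554 in Het metastases (1456530_x_at). The groups overlapped, with a log2 difference of -0.06 (SE 0.17). Another probe set with the x mark, 1455994_x_at, was at -0.13 (SE 0.18). The one without it, 1425676_a_at, was at 0.15 (SE 0.08), with 1306, 1302 and 1216 in KO and 1040, 1235 and 1175 in Het metastases.

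**Figure D3:**
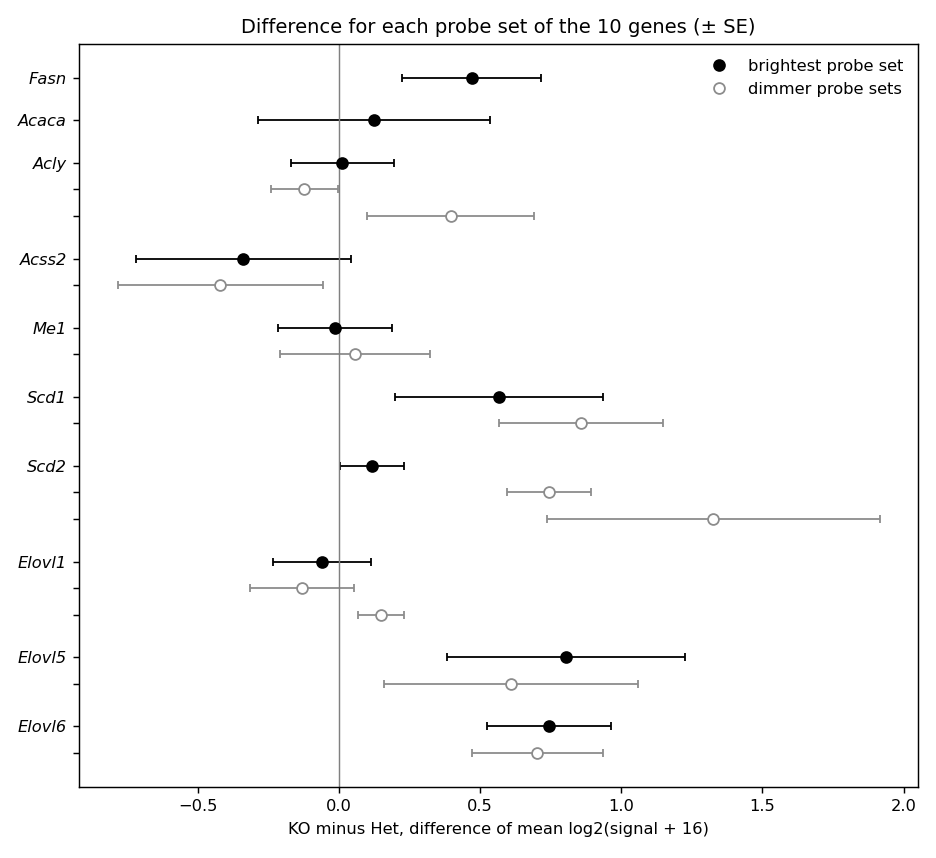
Difference in mean log2(signal + 16), KO minus Het, for the 21 probe sets of the 10 genes that passed the filter on dim probe sets; filled points are the brightest probe set of a gene, open points the others, and bars the SE from the spread of 3 arrays in each group. Both probe sets of Elovl6 sit near 0.7, whereas those of Scd2 run from 0.12 to 1.33.

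The 10 genes did not rank the metastases in 1 common order. Of the brightest probe sets, 5 were highest in KO replicate 3 (Fasn, Acaca, Acly, Acss2 and Elovl6), 3 in KO replicate 1 (Scd2, Elovl1 and Elovl5), 1 in KO replicate 2 (Scd1) and 1 in Het replicate 2 (Me1). The mean of the 5 synthesis genes, relative to each gene's mean over the 6 arrays, was -0.14, -0.19 and 0.41 in KO replicates 1, 2 and 3, against -0.13, -0.08 and 0.13 in Het replicates 1, 2 and 3. The mean of the 2 desaturases was 0.35, 0.37 and -0.21 in KO, against 0.11, -0.36 and -0.26 in Het. By these means of brightest probe sets, KO replicate 3 was the highest metastasis for the synthesis genes and the lowest KO metastasis for the desaturases. The dimmer Scd1 probe set was also lowest among KO arrays in KO replicate 3, at 630. Both dimmer Scd2 probe sets differed, with KO replicate 1 the lowest KO array, at 2098 and 440, and KO replicate 3 at 2149 and 506. The KO arrays spanned a wider range than the Het arrays for 8 of the 10 genes, against 62.6% of the 7971 genes, but the median range of the 10 genes was 0.55 log2 units in KO and 0.58 in Het.

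Cell type markers differed across the same arrays. The mean of 7 alveolar type 2 markers was 1.76, 0.33 and -1.30 in KO replicates 1, 2 and 3, against 0.32, -0.71 and -0.40 in Het replicates 1, 2 and 3. Elovl5 took a similar order, with 0.97, 0.46 and -0.22 in KO, against 0.01, -0.82 and -0.40 in Het, and Scd1 was likewise lower in KO replicate 3 than in the other KO arrays. Lpcat1, which remodels the phosphatidylcholine of surfactant, had signals of 5775, 2140 and 717 in KO, against 1618, 840 and 933 in Het metastases. The mean of 8 milk secretion markers was -0.82, -0.42 and 0.42 in KO, against 0.26, 0.09 and 0.46 in Het. Acss2 was ordered much like these, with -0.58, -0.44 and 0.51 in KO, against 0.12, -0.10 and 0.48 in Het. The mean of 5 fibroblast markers was 0.59, 0.37 and -0.13 in KO, against -0.26, -0.35 and -0.21 in Het. Of these 5, 4 had all KO arrays above all Het arrays, against 5.93% of all genes kept, and 1 was lower on average in KO. The mean of 6 endothelial markers was 0.69, 0.36 and -0.57 in KO, against 0.09, -0.32 and -0.24 in Het. Elovl6 was highest in KO replicate 3, where alveolar type 2 and endothelial means were lowest and the fibroblast mean lay above all Het arrays. The part of lung, endothelial, secretory and stromal cells in the differences of the 10 genes, Elovl6 included, was not tested. In such bulk tissue fewer cells of a type and less RNA per cell cannot be told apart.

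**Figure D4:**
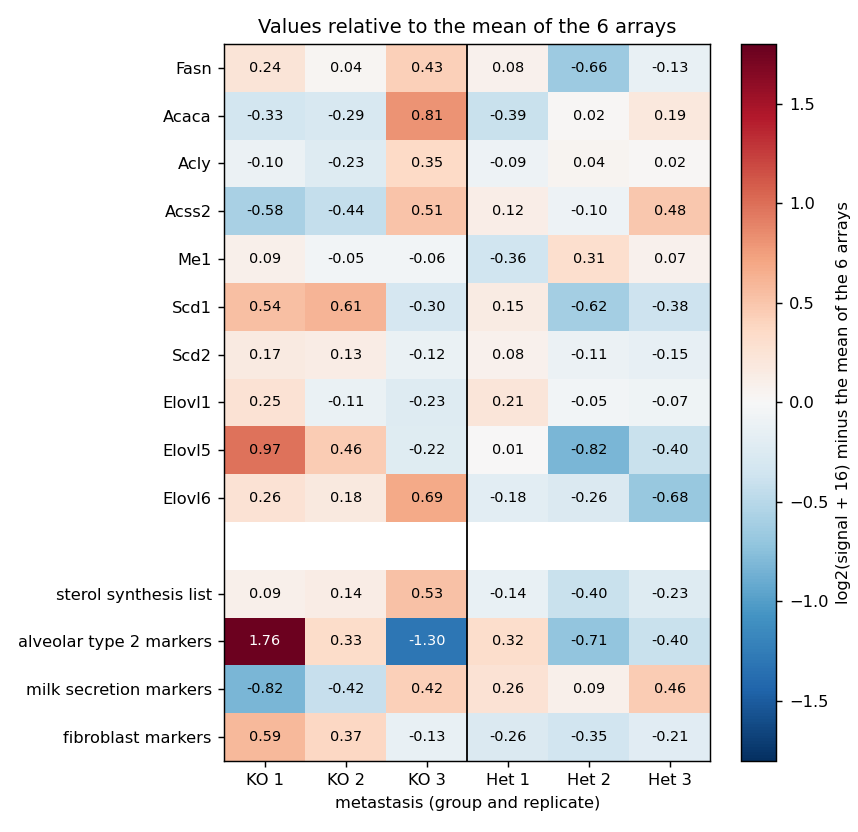
Values of the brightest probe set of each gene, and means of 4 gene lists, in the 3 KO (left) and 3 Het (right) metastases, as log2(signal + 16) minus the mean over the 6 arrays. Elovl5 and Scd1 are highest in KO replicates 1 and 2, as are the fibroblast markers, whereas Acaca, Acss2 and Elovl6 are highest in KO replicate 3, where the alveolar type 2 markers are at -1.30.

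The closest relatives of the 10 genes on the array did not share 1 direction. Of 15 other genes of fatty acid synthesis, elongation and desaturation that were kept, 8 were higher and 7 lower on average in KO. Over all genes kept, 43.7% were higher. The median of the 15 was 0.01, and none had a brightest probe set without overlap. The largest were Elovl4 (0.36, SE 0.83), the desaturase Fads1 (0.29, SE 0.22), the elongation-cycle reductase Hsd17b12 (0.28, SE 0.19) and Fads3 (-0.20, SE 0.30). Dimmer probe sets of Hsd17b12, at 0.57, and of Fads2, at 0.54, had all KO arrays above all Het arrays, whereas the brightest Fads2 probe set was at -0.05; Fads2 is named after its values were seen. Genes that supply citrate and NADPH were lower on average in KO in 6 of 7, with a median of -0.11, where 56.3% of all genes were lower. Pgd, an NADPH-making enzyme of the pentose phosphate pathway, had 3545, 4953 and 6266 in KO, against 6728, 6524 and 7142 in Het metastases, with no overlap (log2 difference -0.50, SE 0.24), and its other probe sets lay between -0.83 and -0.36. Non-overlapping lower values occurred in 10.5% of all genes. Idh1, Cs and Aco1 followed at -0.46, -0.19 and -0.11, all overlapping. None of these genes passed limma's test.

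Among 11 regulators kept, 4 were higher and 7 lower on average in KO, where 43.7% and 56.3% of all genes kept were. Brightest probe sets lay higher without overlap in 2 of the 11, against 5.93% of all genes. The sterol regulator Srebf2 had signals of 473, 409 and 332 in KO, against 257, 219 and 242 in Het metastases, with no overlap (log2 difference 0.71, SE 0.16); its dimmer probe set was at 0.63, also without overlap. Srebf1, named after its values were seen, was the other regulator whose brightest probe set did not overlap. It had 2950, 2193 and 1840 in KO, against 1826, 1800 and 1741 in Het metastases (0.35, SE 0.20), with KO replicate 3 only just above Het replicate 1. Dimmer probe sets of Mlx (0.60) and Insig2 (0.40), also named afterwards, lay higher in KO without overlap. Their brightest probe sets were at -0.05 and 0.04 and overlapped. Thrsp, a lipogenic protein of liver, fat and mammary gland, went the other way, with 2443, 3879 and 5116 in KO, against 5677, 4374 and 6825 in Het metastases (-0.60, SE 0.36). Mlxipl was at -0.83 (SE 0.69) and the oxysterol receptor Nr1h3 at -0.37 (SE 0.40), both dim and overlapping.

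Genes for the use of fatty acids in lipids were split, with 6 of 11 higher on average in KO, against 43.7% of all genes kept. Lpcat1 had the largest difference of the 11, at 0.93 (SE 0.91), and overlapped. Of the 11, 2 were higher and 2 lower without overlap, where 5.93% and 10.5% of all genes were. Acsl4 and Dgat2 lay higher in KO without overlap, at 0.35 each (SE 0.20 and 0.19). The dimmer probe sets of Acsl4 were at 0.71 and 0.95, also without overlap. Agpat1 lay lower without overlap, at -0.38 (SE 0.19), although its dimmer probe set was at 0.24. Gpam, the other gene lower without overlap, was at -0.32 (SE 0.10) and is named after its values were seen; its dimmer probe set went the other way, at 0.66, again without overlap. Of 16 genes of fatty acid oxidation, the pathway that breaks down what the 10 genes make, 11 were lower on average in KO. The median was -0.06, and 56.3% of all genes kept were lower. In 4 of the 16 all KO arrays lay below all Het arrays, against 10.5% of all genes. Cpt2 had 385, 295 and 446 in KO, against 589, 630 and 464 in Het metastases (-0.57, SE 0.21), and Hadhb was at -0.33 (SE 0.15), with a dimmer probe set at -0.09. Acadm and Etfdh, the other 2 without overlap, were at -0.24 and -0.29 and are also named after their values were seen. Cpt1a, the gate to mitochondrial oxidation, went the other way at 0.35 (SE 0.19), although KO replicate 3 and Het replicate 3 were both at 898. Pdk4 had the largest value, at -1.36 (SE 0.80), with wide overlap.

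Sterol synthesis, which shares SREBP control with fatty acid synthesis, was the nearest pathway with a common direction. All 18 genes kept were higher on average in KO, with a median of 0.48, where 43.7% of all genes kept were higher. In 10 of the 18 all KO arrays lay above all Het arrays, against 5.93% of all genes. These shares carry no test, because the list was chosen with earlier results of these data known. KO replicate 3 had the highest mean, at 0.53. The 10 fatty acid genes had means of 0.15, 0.03 and 0.19 in KO replicates 1, 2 and 3, against -0.04, -0.22 and -0.10 in Het replicates 1, 2 and 3. By the median of the 10 genes, KO replicate 1 was highest, at 0.20, against 0.15 for KO replicate 3. Whether the pathways differ was not tested. Elovl6, at 0.75, had its KO arrays above all Het arrays. So did Stard4 (0.92, SE 0.34), a sterol carrier gene, and the sterol synthesis enzymes Sqle (0.90) and Fdps (0.89). Msmo1, next in size on the sterol list at 0.86, overlapped. Among the other 7961 genes, the profile over the 6 arrays closest to the mean of the 10 genes was that of Adat2, with a root mean square difference of 0.03 log2 units, followed by Samm50, Plekhh1, Adsl and Rbms1, at up to 0.05. The median gene was at 0.27, and the mean profile itself was 0.14 from a flat line.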

How the data were processed

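RNA of 6 lung metastases was hybridised to Affymetrix mouse arrays. The authors deposited 1 table of linear intensities. Per the submitters' processing notes MAS5 and Affymetrix Expression Console were used, without a version. The equal trimmed means show global scaling of the deposited signals. Precision is limited by the number of arrays.

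Of 22690 probe sets, 64 controls and the dimmest 40% of the rest were left out, which kept 13576, and 21 of the 23 probe sets of the 10 genes. In the platform annotation, 20380 probe sets had 1 symbol, 691 had more than 1 and 1555 had no symbol. Signals were turned into log2(signal + 16), so folds understate changes of dim genes. Every probe set was fitted with limma 3.58.1 in R 4.3.3 (lmFit, eBayes with trend, Benjamini-Hochberg adjustment, threshold 0.05), with the 3 Het arrays averaged into 1 sample that is assumed to vary like a KO sample. The averaged Het sample adds no spread of its own, so p-values of this fit measure only the spread among the 3 KO metastases. That spread may be in part technical, and the labels do not state that the 3 KO title numbers mark separate animals. On simulated data over 13576 probe sets, this fit recovered 0% of probe sets changed by 1 on the log2 scale and 74.7% of those changed by 4. The SD is over the 3 arrays of a group, and the SE of a difference combines the SDs of both groups over 3 arrays each. This SE counts the Het arrays as separate samples, although they may come from 1 mouse. It may therefore understate the uncertainty of a difference between genotypes.

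The members and lists were chosen with earlier results of these data known. Beyond the 10 genes, the text names up to 4 kept genes per list with the largest absolute difference, and the 5 nearest profiles; a few others are named as chosen afterwards. Alternatives covered the unit of replication, pseudocount, filter, normalization, choice of probe set and leaving out each array. Promoters came from RefSeq's GRCm38.p6 table; the array values come with no genome build.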

Additional observations from a re-analysis of the deposited data

How the results depend on the processing

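No setting called a probe set: 0 passed limma's test with the averaged Het arrays, with 6 arrays as samples, with arrays blocked on their title number, with other pseudocounts (1 and 64), with no filter or 60% left out, with quantile normalization, and without any single array. Unadjusted p-values under 0.05 numbered 305 with the averaged Het arrays, 1395 with 6 arrays as samples and 668 with the block. The number of the 10 genes higher on average in KO ran from 6 to 8 over the 12 alternatives. Their median difference of 0.12 was 0.30 with the mean of all probe sets of a gene and 0.30 with the second brightest probe set, an alternative chosen after seeing the data. It was 0.08 with quantile normalization, and without single arrays it ran from 0.11 to 0.22. The mean difference of 0.24 ran from 0.19 to 0.31. Fasn, Scd1, Scd2, Elovl5 and Elovl6 stayed positive and Acss2 negative under all 12, whereas Acaca, Acly, Me1 and Elovl1 changed sign in 15 of their results. Without both KO replicate 1 and Het replicate 1, also chosen after seeing the data, the median was 0.14. No paired analysis was possible because the replicate numbers only follow the order of deposit. Signal over background was not known, which limits what can be read from Acaca and the dim Acly probe sets.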
